A study of Mus musculus with 4 samples.

Results

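Growth factor receptors switch on RAS, RAF, MEK and the kinase ERK, a mitogen-activated protein kinase (MAPK), and ERK in turn induces genes that damp the cascade. The 10 genes described here belong to that feedback output. They were chosen by name: 3 dual-specificity phosphatases (Dusp4, Dusp5 and Dusp6), 3 sprouty genes (Spry1, Spry2 and Spry4), 2 sprouty-related genes (Spred1 and Spred2) and 2 ETS transcription factors (Etv4 and Etv5). A gene was represented by its named probe set with the highest mean signal over the 4 arrays. Probe sets annotated with a single symbol covered 8 of the 10 genes among 12393 genes in all; Dusp4 and Dusp5 had no such probe set and were not analysed here. Of the 8 genes, 5 had a mean signal high enough to be among the 7436 genes tested, and Spry4, Etv4 and Etv5 lay below that filter.

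The arrays held RNA of melanocytes, the pigment cells of the skin, cultured from tail epidermis of individual female mice. One group was wild type on the C57BL/6 background and the other lacked the aryl hydrocarbon receptor (AhR), a ligand-activated transcription factor, through the allele AhRtm1Bra, in which exon 2 of Ahr is deleted in every cell of the animal. Each group had 2 arrays, 1 animal each. Cultures of both groups spent 6 to 8 weeks in a serum-free growth medium for melanocytes. No source used here states the ages of the animals, and the data hold no measure of ERK phosphorylation. The comparison asked which transcripts differ in pigment cells without the receptor.

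Several of these genes serve as transcript readouts of ERK activity. DUSP6 removes the activating phosphates of ERK in the cytoplasm, while DUSP4 and DUSP5 act in the nucleus. Sprouty proteins restrain signalling from receptor tyrosine kinases to RAS, and SPRED proteins bring the RAS inactivator neurofibromin to the membrane. ETV4 and ETV5 are ETS factors of the PEA3 subfamily that are induced downstream of fibroblast growth factor and ERK signalling. In melanocytes the cascade is driven by KIT, endothelin and fibroblast growth factor signals, and it is mutated to an active form in most melanomas.

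The stretches before the gene starts of Spry1, Spry2 and Dusp6 are shown because Spry1 and Spry2 were the tested feedback genes higher on both knockout arrays and Dusp6 is widely used as a readout of ERK activity. They are the 250 bases before the start in RefSeq (build GRCm38.p6), 5' to 3' along the gene, at chr3:37639697-37639946 on the plus strand, chr14:105896820-105897069 on the minus strand and chr10:99262981-99263230 on the plus strand. Capitals mark GCGTG, the core bound by AhR and its partner ARNT, found on either strand.
Spry1: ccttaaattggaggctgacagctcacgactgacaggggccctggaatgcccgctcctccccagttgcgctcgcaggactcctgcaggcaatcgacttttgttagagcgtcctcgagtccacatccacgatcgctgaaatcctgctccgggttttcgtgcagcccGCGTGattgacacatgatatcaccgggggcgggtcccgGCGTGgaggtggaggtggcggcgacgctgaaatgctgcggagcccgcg
Spry2: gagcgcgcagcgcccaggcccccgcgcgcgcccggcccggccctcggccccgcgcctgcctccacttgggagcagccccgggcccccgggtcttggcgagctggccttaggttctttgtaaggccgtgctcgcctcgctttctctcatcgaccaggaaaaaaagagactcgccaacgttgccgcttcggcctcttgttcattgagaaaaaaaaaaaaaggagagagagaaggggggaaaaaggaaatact
Dusp6: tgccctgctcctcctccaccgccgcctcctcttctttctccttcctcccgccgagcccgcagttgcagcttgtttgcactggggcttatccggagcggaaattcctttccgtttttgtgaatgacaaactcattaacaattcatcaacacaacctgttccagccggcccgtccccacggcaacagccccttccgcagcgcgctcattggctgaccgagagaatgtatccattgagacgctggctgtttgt
Spry1 held GCGTG at 86 to 82 and at 48 to 44 bases before its start, and Spry2 and Dusp6 held none. The windows of the dim Etv5, which also read higher on both knockout arrays and is not shown, held none either. Of all 32851 windows of this length, 28.2% held the core, so a match is common. Windows were listed for 7 of the 10 genes, 8 windows in all, of which 3 held GCGTG: Spry1, Spred2 and Dusp5. Further motifs were searched on both strands in the same windows: the extended AhR element TNGCGTG, which contains the core, the ETS core CCGGAA, the AP-1 site TGANTCA, the E-box CACGTG and the cAMP response element TGACGTCA. None of the 8 windows held any of them, against 4.1%, 12%, 6.75%, 6.02% and 1.55% of all windows in that order. GC content was 62.4% before Spry1 and before Spry2 and 56.4% before Dusp6, against a median of 52.4%. Matches of this kind describe letters and are not measured binding.

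Of the 5 tested feedback genes, 0 passed limma's test at an adjusted p under 0.05, where 0.955% of all tested genes did. With limma's unadjusted p under 0.05, 1 of the 5 was higher in knockout cells (Spry1) and 0 were lower, against 7.68% and 12.9% of all tested genes. That count was 0 of 5 with wild type 1 left out and 0 of 5 with wild type 2 left out. The groups did not overlap for 2 of the 5, Spry1 and Spry2, both higher in knockout, and 28.7% of all tested genes were separated in that direction. The median log2 difference of the 5, knockout minus wild type, was 0.22, against 0.0055 over all tested genes. Against the mean of the wild-type arrays it was 0.53 in AhR knockout 1 but -0.079 in AhR knockout 2, so its sign depended on a single array. All log2 differences are on the scale log2(signal + 16), which understates the change of dim genes.

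**Figure D1:**
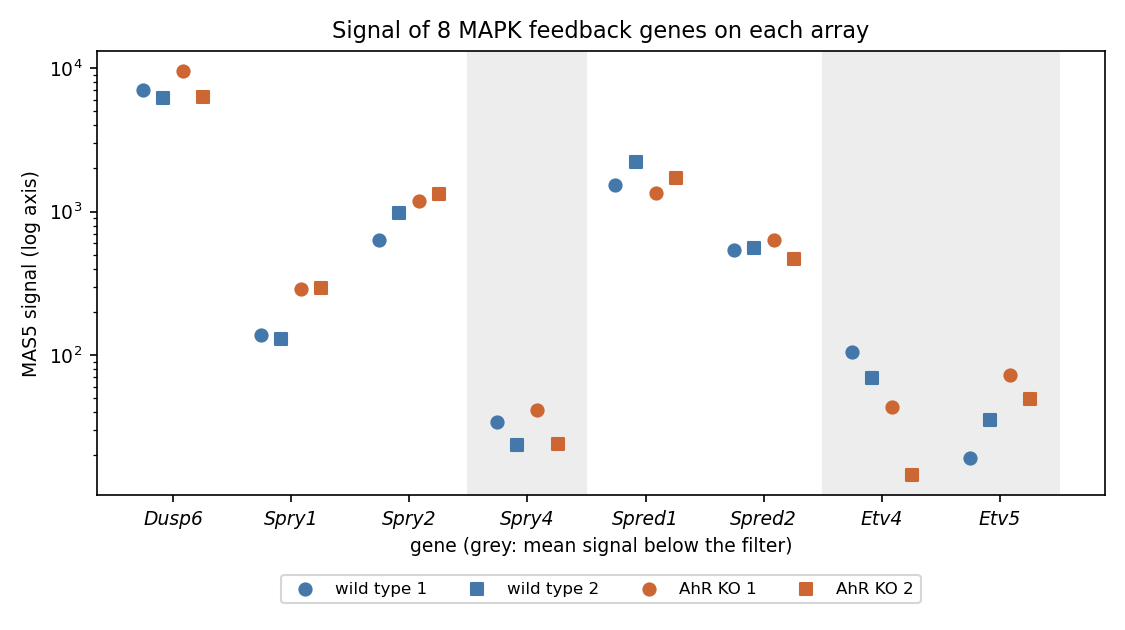
MAS5 signal (log axis) of the 8 measured feedback genes on each of the 4 arrays, wild type in blue and AhR knockout in orange; genes on grey lay below the signal filter. Both knockout points lie above both wild-type points for Spry1, Spry2 and Etv5 and below them for Etv4; heights of different genes come from different probes and are not to be compared.

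Among the sprouty genes, Spry1 had the smallest p of the 5. Signals were 138 and 128 on the arrays of wild type 1 and 2, against 287 and 294 on those of AhR knockout 1 and 2. Arrays of a group lay close together, and the knockout arrays did not overlap the wild-type arrays. The log2 difference was 1.04 ± 0.35 (SE, n = 2 per group), a 2.05-fold higher value on that scale, with a 95% interval from 0.26 to 1.82. Limma gave an adjusted p = 0.15, so Spry1 did not pass. A size of at least this was found for 14.1% of all tested genes. The difference was 1.02 with AhR knockout 1 alone and 1.06 with AhR knockout 2 alone.

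Spry2, which like Spry1 encodes a membrane-associated inhibitor of receptor signalling, had signals of 636 and 986 on the wild-type arrays, and of 1188 and 1337 on the knockout arrays. The knockout arrays again lay above both wild-type arrays, while the wild-type arrays themselves had an SD of 0.44 on the log2 scale. The log2 difference was 0.66 ± 0.38 with a 95% interval from -0.19 to 1.51, and limma gave an adjusted p = 0.35. It was 0.35 without wild type 1 and 0.97 without wild type 2. A dimmer Spry2 probe set went the other way. It gave 29.5 and 45.5 on wild-type and 18.6 and 21.5 on knockout arrays (log2 difference -0.55), and averaging both probe sets left 0.053. The direction for Spry2 therefore rests on the brighter probe set.

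Spry4 was dim. Its brighter probe set gave 34.04 and 23.7 on wild-type and 41.5 and 24.1 on knockout arrays, overlapping groups with a log2 difference of 0.11 and no test. The second Spry4 probe set had a difference of 0.064.

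Dusp6, the ERK phosphatase, was the only dual-specificity phosphatase of the 10 with a named probe set. Wild-type arrays gave signals of 7100 and 6189, and knockout arrays gave 9573 and 6273. AhR knockout 1 was the highest of the 4 arrays, and AhR knockout 2 lay between the wild-type arrays. The log2 difference was 0.22 ± 0.31, with a 95% interval from -0.46 to 0.91 and a limma adjusted p = 0.69. In the main fit that interval leaves out a 2-fold change in either direction (1 on this log2 scale). It rests on the spread that limma pools over genes. With eBayes without trend the same difference had a larger unadjusted limma p, 0.56 instead of 0.48. Intervals of the other fits are not given here, so a 2-fold change is not excluded in general. Without AhR knockout 1 the difference was -0.079, and without AhR knockout 2 it was 0.53.

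For the sprouty-related genes the groups overlapped. Spred1, whose loss causes Legius syndrome with pigmented skin spots, gave 1540 and 2214 on wild-type and 1343 and 1713 on knockout arrays. The lowest and the second highest of these are knockout arrays. The log2 difference was -0.28 ± 0.37, with an interval from -1.11 to 0.54 and a limma adjusted p = 0.68. It was -0.54 without wild type 1 and -0.022 without wild type 2. Its other probe sets did not give a common picture. One gave 631 and 787 on wild-type against 493 and 273 on knockout arrays, a difference of -0.91 with separated groups, and the other gave 98.7 and 114 against 93.1 and 160, a difference of 0.18. Both of these probe sets carry the suffix of sets that can match more than a single transcript.

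Spred2 gave 539 and 559 on wild-type and 633 and 464 on knockout arrays, so AhR knockout 1 lay above and AhR knockout 2 below both wild-type arrays. The log2 difference was -0.017 ± 0.37, with an interval from -0.84 to 0.80 and a limma adjusted p = 0.98. The sign turned to positive with quantile normalization (0.13), with equal array medians (0.060), with the mean of both probe sets (0.58), without wild type 2 (0.0095) and without AhR knockout 2 (0.20). A dim second probe set gave 6.02 and 9.26 on wild-type against 40.7 and 34.7 on knockout arrays, a difference of 1.18.

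**Figure D2:**
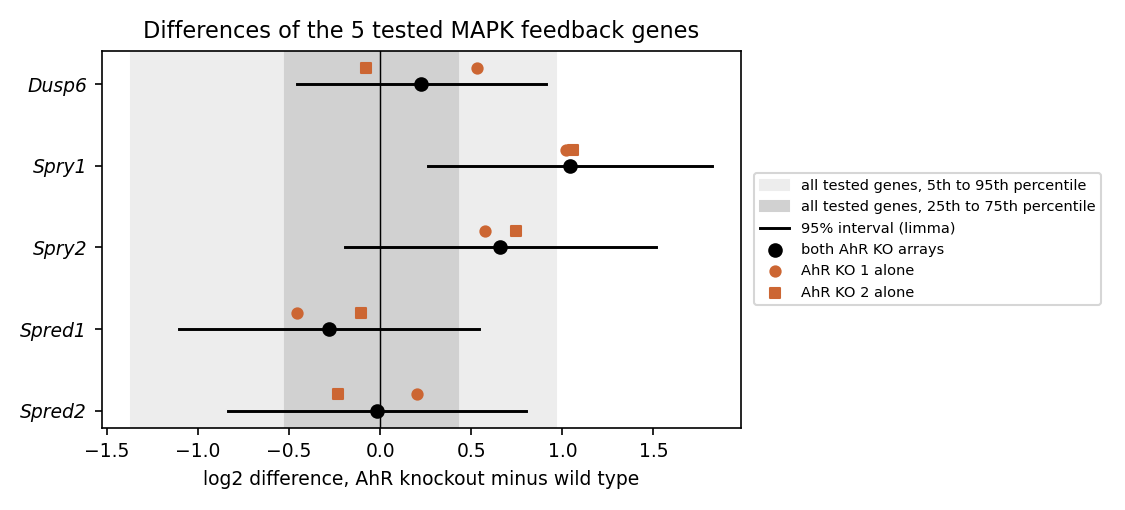
Log2 difference, AhR knockout minus wild type, of the 5 tested feedback genes (black points, both knockout arrays; lines, 95% interval from limma; orange, each knockout array alone) over grey bands for all 7436 tested genes. Only the interval of Spry1 (0.26 to 1.82) lies above 0, and the knockout arrays give opposite signs for Dusp6 and Spred2.

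The ETS factors were both dim and differed in opposite directions, with no test beside the brighter genes. Etv4 gave 105 and 69.5 on wild-type and 43.1 and 14.5 on knockout arrays. Both knockout arrays lay below both wild-type arrays, with a log2 difference of -1.26, with -0.78 for AhR knockout 1 and -1.73 for AhR knockout 2 taken alone. Etv5 gave 19.3 and 35.3 on wild-type and 72.2 and 49.4 on knockout arrays, separated in the other direction with a difference of 0.84. Among the 4957 genes below the filter, 30.5% were separated with knockout higher and 11.6% with knockout lower. When all 12393 genes were fitted without the filter, limma's unadjusted p was 0.027 for Etv4 and 0.061 for Etv5, with adjusted p = 0.28 and 0.35. In that fit 8.3% of genes were lower and 6.78% higher with an unadjusted p under 0.05. The second Etv5 probe set gave 18.7 and 26.7 on wild-type and 94.96 and 5.45 on knockout arrays, so its groups overlapped.

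**Figure D3:**
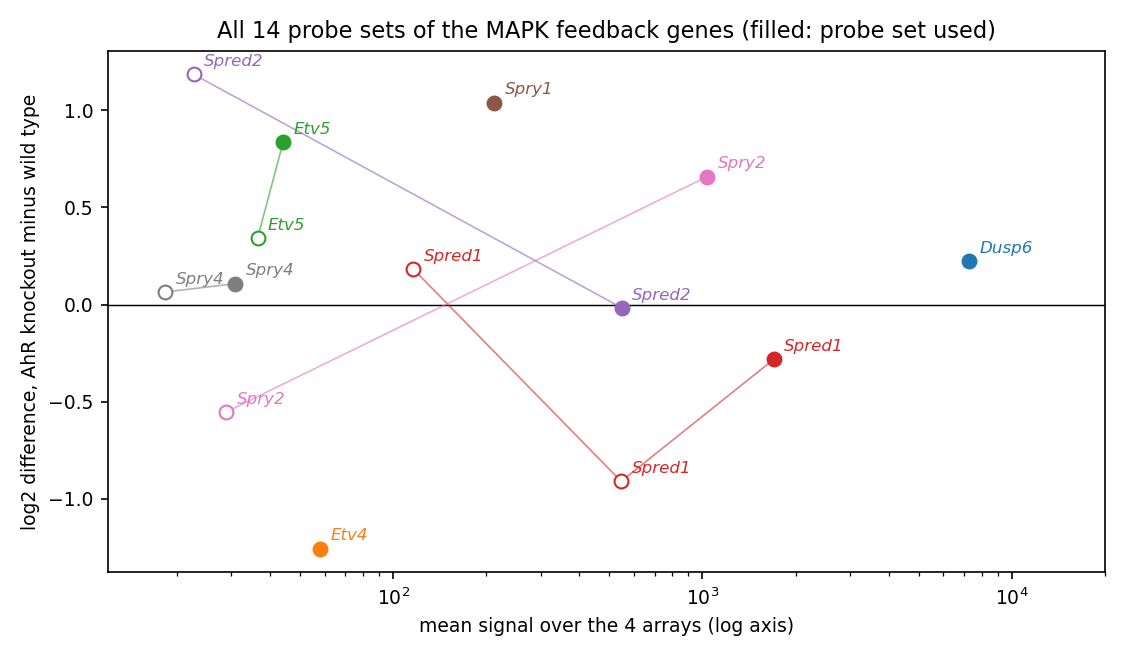
Log2 difference, AhR knockout minus wild type, against mean signal over the 4 arrays (log axis) for all 14 probe sets of the 8 measured genes; filled points are the probe sets used, and lines join probe sets of a gene. Of the 6 other probe sets, 3 had the opposite sign (Spred1, Spred2 and Spry2), and 2 of these lay over 1 log2 unit away.

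The profile of Spry1 over the 4 arrays was compared with all 7435 other tested genes, by the root mean squared distance between centred log2 values. Nearest were Gstm5, a glutathione transferase (0.041), Thra, a thyroid hormone receptor (0.046), Mpv17, a mitochondrial inner membrane protein (0.058), Mindy1, a deubiquitinase (0.063), and Sema4b, a semaphorin (0.067). The median distance was 0.598. Spry2 lay at 0.319, Dusp6 at 0.468, Spred2 at 0.556 and Spred1 at 0.704, so Spred1 was farther from Spry1 than the median gene. With 4 arrays such a distance is a description only.

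Among 8 other dual-specificity phosphatases that were tested, the largest difference was in Dusp16, which encodes a phosphatase of the stress kinases JNK and p38. Its signals were 311 and 334 on wild-type and 92.5 and 74.7 on knockout arrays. The log2 difference was -1.77 ± 0.35 with a limma adjusted p = 0.054, just short of the threshold. Of 10 such genes, all 10 were measured and 8 tested, of which 5 were higher and 3 lower, with 0 past the test and a median of 0.12. Dusp1, an immediate early phosphatase, gave 2877 and 4522 on wild-type against 3011 and 1384 on knockout arrays, with overlapping groups. Dusp10 differed by 0.50 and Dusp14 by -0.46, with limma adjusted p = 0.48 and 0.49.

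Other feedback regulators and ERK target genes were mostly lower. Of the 18 listed genes, 14 were measured and 13 tested, and 3 were higher and 10 lower, with a median of -0.39 and 0 past limma's test. Of all 7436 tested genes, 3695 were lower. With an unadjusted p under 0.05, 1 was higher and 3 were lower, where the shares of all tested genes were 7.68% and 12.9%. Phlda1, a growth factor induced gene, gave 1937 and 1173 on wild-type and 3190 and 6173 on knockout arrays. Its log2 difference was 1.55, and limma's adjusted p = 0.099. Egr1, an immediate early transcription factor, gave 541 and 407 on wild-type and 308 and 159 on knockout arrays. It differed by -1.03, and limma's adjusted p = 0.20. Rasa1, a GTPase-activating protein that switches RAS off, differed by -1.40, and Lrig1, which promotes the degradation of growth factor receptors, by -1.30. Genes counted as ERK outputs thus stood on both sides. For example, Spry1 and Phlda1 read higher, and Egr1 and the dim Etv4 lower, on both knockout arrays. Of the 13 tested genes of this list, the groups did not overlap for 3 higher and 7 lower genes. Over all 7436 tested genes those counts were 2135 and 1987.

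The RAS to ERK cascade itself was measured for 13 of 20 listed genes. Tests covered 11 genes, 6 of them higher and 5 lower, and 0 passed; the median was 0.036. Sos2, a RAS activator, gave 645 and 971 on wild-type and 207 and 312 on knockout arrays. The difference was -1.58 on the log2 scale, and limma's adjusted p = 0.081. Nras differed by -1.15 and Map2k1, which encodes the kinase MEK1, by -0.85, while Map2k2, which encodes MEK2, differed by 0.62. Their adjusted p lay between 0.17 and 0.38. The groups of each of these 4 genes did not overlap, as for 55.4% of all tested genes in either direction.

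Growth factor receptors lay between -1.67 and 0.55 on the log2 scale, and ligands between -2.02 and 2.06. Of 15 listed receptors, all 15 were measured and 10 tested, 3 higher and 7 lower, with a median of -0.29 and 0 past the test. Kit, the receptor for stem cell factor, gave 1235 and 900 on wild-type and 558 and 273 on knockout arrays, a difference of -1.39 with a limma adjusted p = 0.13. Tek, Flt1 and Kdr, receptors of blood vessel endothelium, differed by -1.67, -0.84 and -1.03. Of 17 listed ligands, 15 were measured and 9 tested, 3 higher and 6 lower, with a median of -1.17 and 0 past the test. With an unadjusted p under 0.05, 2 ligands were higher and 5 lower, where all tested genes had 7.68% and 12.9%.

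Fgf1, a ligand of fibroblast growth factor receptors, had the smallest p of the ligands. It gave 211 and 115 on wild-type and 527 and 938 on knockout arrays. The difference was 2.06 ± 0.43 with a limma adjusted p = 0.057. In the opposite direction, Edn1 differed by -2.02, Pdgfb by -1.77 and Igf1 by -1.58, with adjusted p between 0.064 and 0.069. Ligand medians were -0.56 in AhR knockout 1 and -1.53 in AhR knockout 2.

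**Figure D4:**
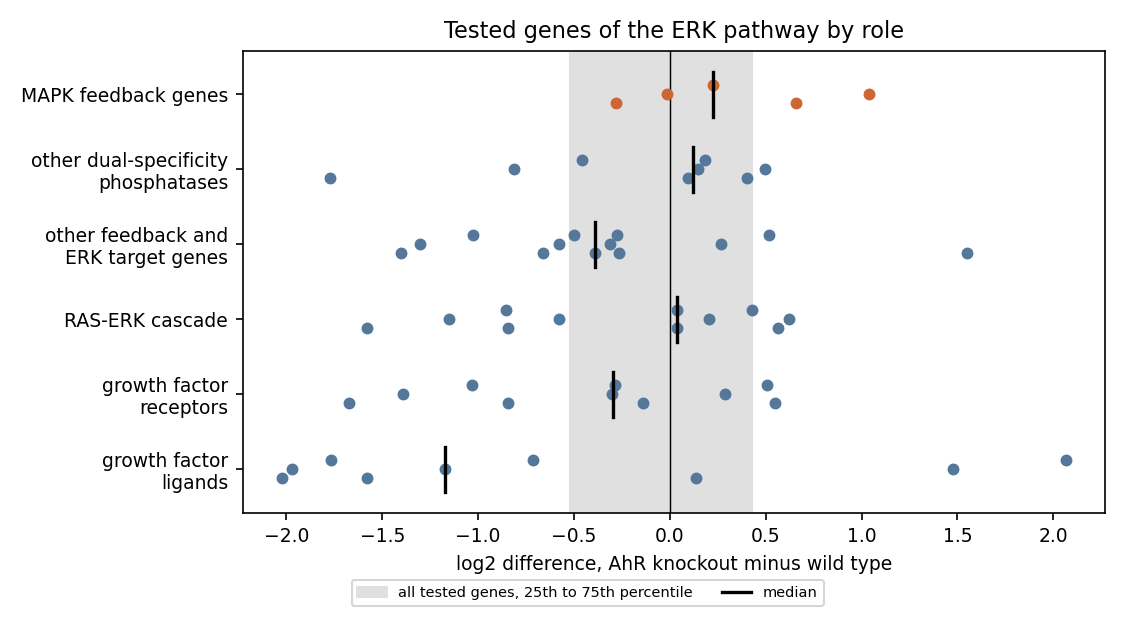
Log2 difference, AhR knockout minus wild type, of each tested gene of the ERK pathway by role (points; black bars, medians; grey, the 25th to 75th percentile of all tested genes). The feedback genes run from -0.28 to 1.04, and the growth factor ligands spread from -2.02 to 2.06.

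The cultures and arrays also differed in other respects. Cyp1b1, a known AhR target, fell from 1216 and 1410 to 14.01 and 23.1, with a limma adjusted p = 4.5e-04, and Ahrr, the AhR repressor, fell by 2.47 (log2), where limma's adjusted p = 0.022. Ahr itself gave 825 and 874 on wild-type and 241 and 843 on knockout arrays; whether its probes lie in the deleted exon was not analysed here, so it checks no label. The summed signal of 9 measured melanocyte markers, 8 of them higher and Mitf lower (log2 difference -0.41), was 66177 to 85483 in wild type and 98901 to 123900 in knockout. For 10 endothelial markers it was 14753 to 17962 against 2021 to 6920. Each of the 8 tested endothelial markers fell in knockout (median -2.01 on the log2 scale), and for 7 of them the groups did not overlap. Limma's unadjusted p was under 0.05 for 6 of the 8, and only Sox17 passed after adjustment (limma adjusted p = 0.049). Sums for 8 leukocyte markers were 1601 to 1672 against 3279 to 3828, of which Lyz2 alone gave 669 and 881 against 2628 and 2776, while Cd68 differed by -0.71. Sums for 5 Schwann cell markers were 6759 to 7478 against 11926 to 14961. Of the 3 tested, Pmp22 differed by 0.73 and S100b by 1.84, while Ngfr differed by -1.03, so the sum does not describe each marker. Sums for 7 keratinocyte markers were 195 to 234 in wild type, 1394 in AhR knockout 1 and 294 in AhR knockout 2. Sums for 8 fibroblast markers were 828 to 1058 against 338 to 447, and for 7 mural markers 2745 to 3646 against 2716 to 3330. Of the 3 tested mural markers, Tagln differed by -0.79 and Acta2 by -0.52, while Pdgfrb differed by 0.51. The mural sum therefore does not describe each marker either. Of the 3 tested fibroblast markers, Col3a1 differed by -2.29 and passed (limma adjusted p = 0.041), Fbln2 differed by -1.16 and Dcn by 0.39. The dim Lum, which was not tested, was also higher on both knockout arrays. Of 54 measured markers, 0 were listed at 0 on any array. The 3' to 5' ratio of Gapdh was 1.98 to 2.85 on 3 arrays and 11.9 on AhR knockout 2. The part of cell makeup and of RNA quality in the values of Spry1, Spry2 and Etv4 was not tested, and fewer cells of a type and less RNA per cell cannot be told apart.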

How the data were processed

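RNA from each culture was amplified and labelled with biotin for Affymetrix arrays, per the labels' protocols. The authors deposited 1 signal intensity per probe set on a linear scale, made with MAS5 (no version) per the submitters' processing notes. The middle 96% of probe sets averaged 500.2 or 500.3 on every array, which shows a common scaling. How background and detection were handled is not given in the sources used here.

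Of 22690 probe sets, 20380 had 1 symbol in the platform annotation, updated through RefSeq identifiers. Groups came from the sample titles. The highest-mean probe set stood for each gene, and genes in the top 60% by mean signal (81.1 or more) were tested. Values became log2(signal + 16) and were fitted in limma 3.58.1 (lmFit, eBayes with trend; R 4.3.3), with p-values adjusted over 7436 genes by Benjamini and Hochberg and a threshold of 0.05. The text names all 10 genes and, of each pathway list, up to 4 with the smallest p. The genes and lists were chosen with earlier results of these data known. Permuting 2 against 2 arrays gives at best 33.3%, so p rests on limma's pooled spread. On simulated arrays of 7436 genes the fit recovered 19.3% of 2-fold and 94.4% of 4-fold changes, and 7.99% of its calls were false. The simulated noise was independent between arrays and took the fit's own spread, with 200 genes changed from 2-fold to 16-fold. These rates describe that setting and not the calls made here. Alternatives were other scalings, pseudocounts (1, 64), filters and probe set rules, eBayes without trend, a block for animal number and each array left out.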

Additional observations from a re-analysis of the deposited data

Results flagged for a closer look

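The second, dimmer Spred2 probe set, which the comparison did not use, gave 6.02 and 9.26 on wild-type and 40.7 and 34.7 on knockout arrays. It was singled out because both knockout arrays lay above both wild-type arrays, with a log2 difference of 1.18, while the probe set used for Spred2 differed by -0.017. Its mean signal of 22.7 lay below the filter of 81.1, and it was not tested by itself.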

How the results depend on the processing

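Of the 5 tested genes, Spry1, Spry2 and Spred1 kept their direction under every alternative run, though Spry2 ranged from 0.35 to 0.97 and Spred1 from -0.54 to -0.022 with an array left out. With the mean of its probe sets Spry2 fell to 0.053, and its dimmer probe set, not run as an alternative by itself, differed by -0.55. Spry1 ranged from 0.85 to 1.14 on the log2 scale over its 13 alternatives and was not tested with the top 40% of genes. Its limma adjusted p ranged from 0.021 to 0.98. Animals carry the numbers 1 and 2 in each group, with no label on what a number marks. With the number as a replicate block, 1406 genes passed instead of 71, and 1 feedback gene instead of 0: Spry1, with a difference of 1.04 and adjusted p = 0.021. Same-numbered arrays deviated together with r = 0.35 across 7436 genes, which with 2 pairs does not show that numbers pair the arrays. The count of called genes was 8 with quantile normalization, 43 with pseudocount 1, 1 without the filter, 20 with the top 40%, and from 20 to 1360 with an array left out (152 without wild type 1, 20 without wild type 2, 1360 without AhR knockout 1, 1031 without AhR knockout 2), where a lone array is assumed to vary like the other group. For a count of 71, 21.1% were higher, and with equal array medians 32.4% of 71 were. Feedback genes with an unadjusted p under 0.05 numbered 2 without the filter (Spry1 and Etv4) and 0 with the top 40%; with an array left out they numbered 0 to 1, 0 without wild type 1 and 0 without wild type 2. Spred2 turned to 0.13 with quantile normalization, 0.060 with equal array medians, 0.58 with the mean of probe sets, 0.0095 without wild type 2 and 0.20 without AhR knockout 2, in a range from -0.23 to 0.20 with an array left out. Dusp6 turned to -0.079 without AhR knockout 1, in a range up to 0.53. The causes of these shifts were not tested. Choosing probe sets and filter by mean log2 value, added after the data were seen, gave 61 called genes and changed no call of a feedback gene.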
